A study of Mus musculus with 12 samples.

Results

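The comparison described here is that of Notch1-KO (knockout of the receptor Notch1) with Control in the mouse cochlea, 3 samples of each among the 12 of the series. Each sample was a pool of apical and middle turns from 6 or more cochleae at postnatal day 7, so it holds hair cells, supporting cells and the tissue around them. The other 6 samples are b-catenin-OE (overexpression of β-catenin) and double (both changes together), 3 each. They enter the model for the spread between samples and serve as a second setting for the loss of Notch1. The 6 samples were chosen by their titles. The series names supporting cell proliferation and hair cell generation as its subject. The labels give no strain, driver, allele or sex, and do not tell whether the 3 samples of a group were pooled from different animals. The p-values therefore reflect the spread among the deposited samples alone, part of which may be technical.

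Notch signalling lets neighbouring cells take different fates. A ligand on one cell (Jag or Dll) binds a Notch receptor on the next, the receptor is cut, and its inner part joins the DNA-binding protein Rbpj to switch on repressors of the Hes and Hey families. In the cochlea, hair cells show ligands to the cells beside them, which keep Atoh1, the master factor of the hair cell fate, low and become supporting cells. Lfng is a sugar transferase that acts on Notch receptors and is made in supporting cells. Gfi1 is a transcription factor of hair cells, and Grxcr2 is a protein of the hair bundle, the mechanosensitive brush of the hair cell.

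Expression is given in FPKM, which counts fragments per transcript length and scales them to the mapped fragments of a library, and was tested with limma on log2(FPKM + 0.5) over 14581 rows of the table. A row is called past the test when its p-value, adjusted by Benjamini-Hochberg over all these rows, is under 0.05. Fold changes are Notch1 KO over Control on that log2 scale, where added 0.5 FPKM makes changes of low genes look smaller, with ± for the standard error (n = 3 in each group). The rows tested had a median fold change of -0.01.

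The samples of a group did not stand at equal distances. Samples 2 and 3 differed by a robust SD of 0.0765 (log2) in Notch1 KO and 0.133 in Control, over 5889 genes of at least 10 FPKM in every sample, while sample 1 differed from them by 0.293 to 0.310 in Notch1 KO and by 0.361 to 0.395 in Control. Y-linked transcripts went with that split: Ddx3y was at 0.00822, 12.6 and 12.6 FPKM in Notch1 KO samples 1 to 3, and at 0, 16.7 and 15.1 FPKM in Control samples 1 to 3. Steps of whole fragments in the low values gave depths of 21700000 and 19100000 fragments in Notch1 KO samples 2 and 3 and of 18200000 and 27000000 fragments in Control samples 2 and 3, if FPKM was not scaled further. No such steps were seen in sample 1 of either group, whose depth is unknown. No member of the hair cell commitment, supporting cell, neuron, Schwann cell, mesenchyme or endothelium lists was under the filter on low values. Under it were 10 of 18 muscle genes (with Ckm and Acta1), 5 of 14 red cell genes (with Slc4a1), 5 of 12 osteoclast genes (with Calcr), 5 of 20 bone and cartilage genes (with Sost) and 4 of 11 melanocyte genes (with Tyrp1). The summed FPKM of Schwann cell, neuron, bone and leukocyte genes was higher in Control sample 1 than in the other 5 Notch1 KO and Control samples, as described below.

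Notch1 itself was lower in the knockout. It had 9.16, 7.63 and 7.56 FPKM in Notch1 KO, against 24.3, 14.7 and 16.6 FPKM in Control (chromosome 2, 26457674 to 26503822, mm10), and the groups did not overlap. The means were 8.12 ± 0.90 FPKM in Notch1 KO and 18.5 ± 5.1 FPKM in Control (SD, n = 3 each), a ratio of 0.438. The fold change of -1.11 ± 0.30 missed the threshold in the model without pairing (limma, adjusted p = 0.160) and passed it with the sample number as a block (limma, adjusted p = 0.0156). In the authors' deposited table its p-value is 5e-05. A remainder of transcript is present in every knockout sample; which exons the allele removes, and in which cells, is not given in the sources used here.

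Among all rows, 125 passed the test, which is 0.857% of those tested: 78 were higher in Notch1 KO (0.535%) and 47 lower (0.322%). An unadjusted p under 0.05 was found by limma in 1206 of 14581 rows. With the sample number as a block 237 rows passed (1.63%), of which 144 were higher (0.988%) and 93 lower (0.638%). Of the 125, 114 had a p-value under 0.05 in the authors' deposited table. The count moved to 43 without Control sample 2, 54 without Control sample 3, 55, 28 and 14 without Notch1 KO sample 1, 2 or 3, 72 without double sample 2 and 213 without b-catenin-OE sample 1. It was 103 without Control sample 1. When samples 2 and 3 were replaced by their mean, 0 of 14581 rows passed (limma, with 602 at an unadjusted p under 0.05). With samples 2 and 3 alone 1735 did. Every call below thus depends on counting samples 2 and 3 as separate, though averaging also leaves fewer samples to estimate the spread. With the Notch1 KO and Control samples alone 7 rows passed, so most calls also depend on the other 6 samples in the model.

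Of the 7 classical targets of the pathway 3 fell and none rose, beside 0.322% of all rows lower. Lfng had 22.3, 23 and 23.2 FPKM in Notch1 KO, against 81.2, 68.4 and 80.0 FPKM in Control. The knockout samples were nearly equal and far below every Control sample, and the ratio of the means was 0.298. The fold change was -1.72 ± 0.15 (limma, adjusted p = 0.0016), and it passed in each of the 23 alternative settings but the averaging of samples 2 and 3. Hey1, a repressor of the Hes and Hey family, had 40.9, 33.1 and 33.9 FPKM in Notch1 KO, against 69.5, 61.9 and 61.0 FPKM in Control (-0.83 ± 0.16, limma, adjusted p = 0.0405). Heyl, its relative, had 8.57, 7.74 and 8.66 FPKM in Notch1 KO, against 12.1, 12.1 and 12.4 FPKM in Control (-0.53 ± 0.10, limma, adjusted p = 0.0341). The groups did not overlap for either gene, and both calls were near the threshold: with any single sample of these groups left out, adjusted p was 0.0658 to 0.171 for Hey1 and 0.0604 to 0.171 for Heyl.

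The other 4 targets did not pass. Hes5, a repressor made in supporting cells, had 0.898, 0.497 and 1.28 FPKM in Notch1 KO, against 1.01, 3.18 and 3.98 FPKM in Control, and the groups overlapped through the low Control sample 1 (-1.11 ± 0.35, limma, adjusted p = 0.256). Nrarp, Hes1 and Hey2 had fold changes of -0.18, -0.06 and 0.04 with overlapping groups. Hey2 had 25.0, 20.3 and 18.2 FPKM in Notch1 KO, against 21.9, 19.8 and 19.5 FPKM in Control. The median of the 7 targets was -0.53, beside -0.01 for all rows tested. Leaving out a sample left 1 to 3 of them called.

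The target with the largest fall and the low one that did not pass both hold the letters to which Rbpj is known to bind, which is why their upstream sequence is shown. The 250 bases before each gene's start are given 5′ to 3′ from RefSeq (GRCm38.p6, the assembly of mm10), with matches to GTGGGAA or its reverse complement in capitals. Lfng lies at chr5:140607091-140607340 on the plus strand, with 1 match that begins 109 bases before the start. Hes5 lies at chr4:154960673-154960922 on the plus strand, with matches that begin 226 bases before the start on the other strand and 83 bases before it on the gene's own strand.
Lfng: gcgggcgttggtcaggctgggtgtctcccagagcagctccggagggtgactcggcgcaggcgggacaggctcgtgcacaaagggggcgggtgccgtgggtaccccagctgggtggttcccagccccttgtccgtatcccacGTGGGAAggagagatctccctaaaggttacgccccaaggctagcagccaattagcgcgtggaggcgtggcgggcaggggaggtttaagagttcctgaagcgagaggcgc
Hes5: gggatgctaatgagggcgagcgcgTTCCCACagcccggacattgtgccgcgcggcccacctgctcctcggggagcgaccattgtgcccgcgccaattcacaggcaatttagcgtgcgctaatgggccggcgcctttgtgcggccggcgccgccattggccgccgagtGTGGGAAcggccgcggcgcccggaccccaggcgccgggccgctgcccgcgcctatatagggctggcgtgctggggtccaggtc
Of the 7 targets 4 had a promoter window of 250 bases before to 50 after the start, and 3 of these 4 held the motif on either strand: Lfng, Hes5 and Hey2. Of all 32851 promoter windows, 6.38% held it. Nrarp had none, and Hes1, Hey1 and Heyl had no window. So a match stood before a gene that fell, before one that did not pass and before Hey2, whose values barely differed.

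**Figure D1:**
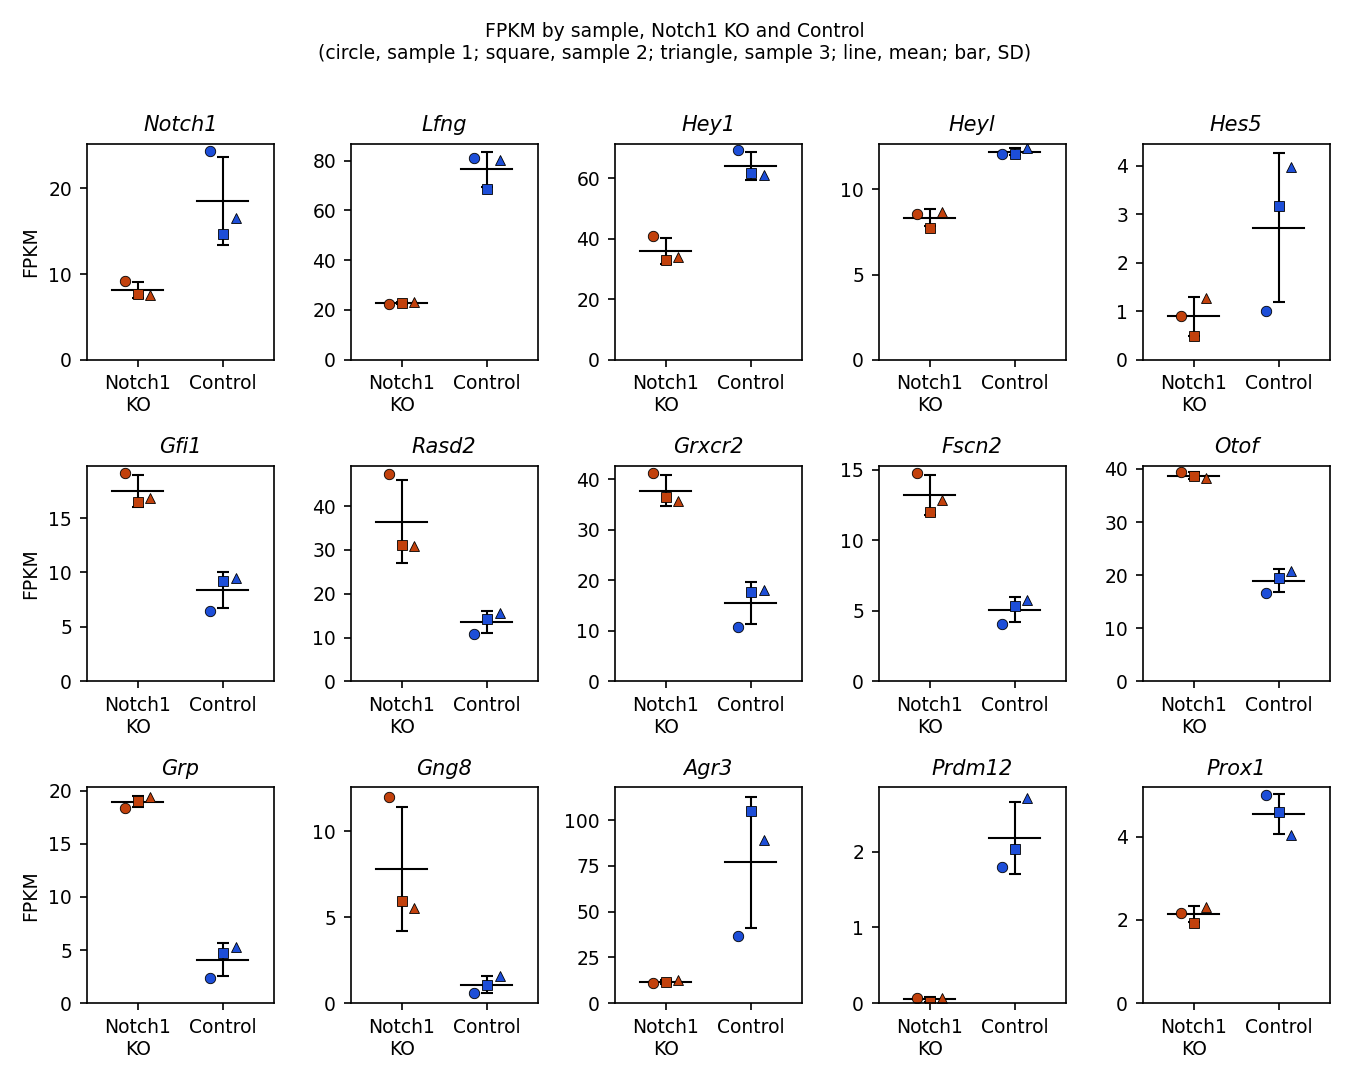
FPKM (linear axis, from 0) of 15 genes in the 3 Notch1 KO samples (left of each panel, orange) and the 3 Control samples (right, blue); circles, squares and triangles are samples 1, 2 and 3, the line is the mean and the bar the SD. Lfng, Hey1 and Heyl sit lower in every Notch1 KO sample, the hair cell genes of the middle row sit higher in every one, and Hes5 overlaps.

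No ligand or receptor passed in the model without pairing (limma, 0 of 7 tested; 3 had an unadjusted p under 0.05). Jag2, a ligand of hair cells, had 15.0, 8.75 and 8.31 FPKM in Notch1 KO, against 5.68, 4.67 and 4.82 FPKM in Control, without overlap (0.97 ± 0.24, limma, adjusted p = 0.120, and 0.0126 with the block). Jag1, a ligand of the supporting cells and their precursors, had 33.2, 25.6 and 25.3 FPKM in Notch1 KO, against 31.9, 40.4 and 41.0 FPKM in Control; its samples 2 and 3 were lower and its sample 1 was not. Dll1 and Dll4 had fold changes of 0.41 and 0.47, and the receptors Notch2 and Notch3 had -0.15 and -0.23, none past the test. Notch4 stands in a row that merges several genes, and the ligand Dll3 was under the filter.

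Of 20 tested members of the processing machinery and its cofactors, 1 passed, higher, beside 0.535% of all rows higher. Mfng, a sugar transferase of the same family as Lfng, moved the other way: it had 15.6, 11.5 and 10.4 FPKM in Notch1 KO, against 5.27, 6.50 and 6.76 FPKM in Control (0.95 ± 0.18, limma, adjusted p = 0.0405), and its call was lost when any single sample of these groups was left out (adjusted p 0.0767 to 0.141). The third enzyme of the family, Rfng, had 15.4, 11.6 and 11.4 FPKM in Notch1 KO, against 17.3, 11.5 and 14.2 FPKM in Control, with overlap. Rbpj, the DNA-binding partner of the cut receptor, had 28.0, 26.0 and 25.2 FPKM in Notch1 KO, against 26.2, 26.3 and 24.5 FPKM in Control.

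Of 19 tested genes of hair cell commitment 6 rose and none fell, beside 0.535% of all rows higher, and the median fold change was 0.91. Besides transcription factors the list holds other hair cell transcripts, and of the 6 only Gfi1 is such a factor. Like the other lists it was chosen with earlier results of these data known. It includes Rasd2 and Dlk2, both among the 10 largest named rises, so its count is no test. Without overlap between the groups were 16 members on the higher side, beside 7.43% of all rows, and 1 on the lower, beside 8.64%. That 1 was Selm, a selenoprotein, with 77.7, 96.6 and 94.2 FPKM in Notch1 KO, against 113, 102 and 110 FPKM in Control, and it did not pass (-0.28 ± 0.12, limma, adjusted p = 0.568). Gfi1 had 19.2, 16.5 and 16.9 FPKM in Notch1 KO, against 6.45, 9.19 and 9.50 FPKM in Control (1.04 ± 0.14, limma, adjusted p = 0.0102). Its means were 17.5 ± 1.5 FPKM in Notch1 KO and 8.38 ± 1.67 FPKM in Control (SD, n = 3 each), and every knockout sample was above every Control sample. In bulk RNA, more cells of a type and more RNA per cell cannot be told apart.

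Rasd2, a small GTP-binding protein on the list as a hair cell transcript, rose by 1.38 ± 0.17, with 47.4, 31.1 and 30.9 FPKM in Notch1 KO, against 10.9, 14.3 and 15.5 FPKM in Control (limma, adjusted p = 0.0078). Dlk2, a membrane protein related to the Notch ligands, had 30.1, 19.0 and 15.8 FPKM in Notch1 KO, against 6.60, 6.02 and 8.37 FPKM in Control (1.52 ± 0.24, limma, adjusted p = 0.0157). Pcp4, a small binder of calmodulin, was the most abundant of the called members, at 382, 408 and 439 FPKM in Notch1 KO, against 160, 253 and 237 FPKM in Control (0.94 ± 0.15, limma, adjusted p = 0.0184). In Rasd2 and Dlk2 the knockout sample 1 was the highest, and in Pcp4 it was the lowest. Acbd7, which binds acyl-CoA, rose by 0.93 and Anxa4, a calcium-dependent membrane binder, by 0.75 (limma, adjusted p = 0.0297 and 0.0470).

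Several best-known members stood apart between the groups without passing. Atoh1 had 5.03, 2.22 and 2.60 FPKM in Notch1 KO, against 0.654, 0.823 and 0.947 FPKM in Control (1.47 ± 0.33, limma, adjusted p = 0.0650). Pou4f3, the factor that keeps hair cells alive downstream of Atoh1, had 53.8, 38.9 and 37.6 FPKM in Notch1 KO, against 15.8, 22.2 and 21.7 FPKM in Control (1.10 ± 0.23, limma, adjusted p = 0.0552, and 0.0424 with the block). Both genes were higher in every knockout sample, most of all in sample 1. Myo7a and Myo6, the unconventional myosins used to mark hair cells, had 9.26, 7.21 and 6.93 FPKM in Notch1 KO for Myo7a, against 3.36, 4.11 and 4.29 FPKM in Control, and 62.6, 66.3 and 70.4 FPKM in Notch1 KO for Myo6, against 45.6, 49.9 and 46.3 FPKM in Control (limma, adjusted p = 0.256 and 0.151). With the block 11 of the 19 passed, all higher, beside 0.988% of all rows higher with the block. The list's count was 2 without Notch1 KO sample 2 or 3, 10 without b-catenin-OE sample 1 and 5 without Control sample 1. Lhx3 stands in a merged row and was not assigned.

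Genes of the hair bundle gave the largest number of calls of any list. Of 34 tested, 9 were higher and none lower, beside 0.535% of all rows higher, the median was 0.74, and 30 of the 34 had a positive fold change. Without overlap were 23 on the higher side and 2 on the lower, beside 7.43% and 8.64% of all rows. Fscn2, an actin bundler of stereocilia, had 14.8, 12 and 12.9 FPKM in Notch1 KO, against 4.10, 5.37 and 5.78 FPKM in Control (1.30 ± 0.15, limma, adjusted p = 0.0034). Grxcr2 had 41.2, 36.4 and 35.7 FPKM in Notch1 KO, against 10.8, 17.6 and 18.1 FPKM in Control (1.29 ± 0.18, limma, adjusted p = 0.0106). In both genes the lowest knockout sample was far above the highest Control sample. Loxhd1, a stereocilia protein, had 5.97, 5.79 and 5.74 FPKM in Notch1 KO, against 1.88, 2.51 and 2.26 FPKM in Control (1.23 ± 0.17, limma, adjusted p = 0.0109).

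The called bundle genes cover the transduction apparatus and its surroundings. Tmc2, a subunit of the transduction channel of immature hair cells, had 2.83, 2.14 and 2.17 FPKM in Notch1 KO, against 0.346, 0.751 and 0.896 FPKM in Control (1.33 ± 0.22, limma, adjusted p = 0.0204). Lhfpl5, which joins that channel to the tip link, had 57.1, 41.5 and 40.3 FPKM in Notch1 KO, against 22.0, 18.5 and 24.9 FPKM in Control (1.06 ± 0.17, limma, adjusted p = 0.0172). Cib2, a calcium binder of the same complex, had 177, 195 and 176 FPKM in Notch1 KO, against 93.9, 113 and 121 FPKM in Control (0.74 ± 0.13, limma, adjusted p = 0.0233). No overlap was seen in any of the 3. Ptprq, a phosphatase of the shaft connectors, rose by 1.11 and the myosin Myo3b by 1.05 (limma, adjusted p = 0.0175 and 0.0446). Tmc1, the channel subunit of mature hair cells, had 7.70, 8.69 and 8.6 FPKM in Notch1 KO, against 3.91, 5.88 and 5.68 FPKM in Control, and missed the threshold (0.66 ± 0.20, limma, adjusted p = 0.247).

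Not all bundle genes moved that way. Rdx, which links actin to the membrane, had a fold change of -0.19 with values of 48.3, 48.5 and 48.9 FPKM in Notch1 KO, against 61.1, 54.2 and 51.8 FPKM in Control. Ush1c had -0.26 and Eps8 -0.12, neither past the test. Espnl, Tomt, Elmod1, Pdzd7, Myo3a and Grxcr1 had fold changes of 1.10, 0.92, 0.89, 1.01, 1.10 and 1.03 without overlap, at adjusted p of 0.0539 to 0.0847 (limma). With the block 15 of the 34 passed, all higher, beside 0.988% of all rows. The count of 9 became 4 without Control sample 2 or Notch1 KO sample 1, and 2 and 1 without Notch1 KO sample 2 or 3; it was 8 without Control sample 1. A row that merges Xirp2, a bundle gene, with a predicted model rose by 1.41, and Ush1g was under the filter.

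Genes of the hair cell synapse, channels and calcium buffers moved less uniformly. Of 22 tested, 2 rose and none fell, beside 0.535% of all rows higher, with a median of 0.39. Without overlap were 12 on the higher side, beside 7.43% of all rows, and none on the lower. Otof, the calcium sensor of transmitter release in inner hair cells, had 39.5, 38.6 and 38.2 FPKM in Notch1 KO, against 16.6, 19.5 and 20.8 FPKM in Control (1.02 ± 0.18, limma, adjusted p = 0.0234). The potassium channel gene Kcna10 had 25.4, 26.9 and 28.4 FPKM in Notch1 KO, against 6.0, 13.0 and 13.1 FPKM in Control (1.36 ± 0.28, limma, adjusted p = 0.0478), and did not pass with the block (limma, adjusted p = 0.0562). Both calls were lost when any single Control or Notch1 KO sample was left out, with none of the list then called. With the block 3 of the 22 passed, all higher, beside 0.988% of all rows.

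Among the outer hair cell genes of that list, Slc26a5, the motor protein prestin, had 21.6, 22.9 and 23.6 FPKM in Notch1 KO, against 16.3, 15.6 and 15.2 FPKM in Control (0.52 ± 0.25, limma, adjusted p = 0.636). The receptor subunits Chrna10 and Chrna9, which take the efferent signal, had fold changes of 1.15 and 0.86 without overlap (limma, adjusted p = 0.0552 and 0.118). Ocm, a calcium buffer of outer hair cells, had 144, 373 and 386 FPKM in Notch1 KO, against 246, 453 and 381 FPKM in Control. It overlapped between groups and differed mainly between sample 1 and the others. Pvalb and Calb2, buffers also made in neurons, were at 129 and 161 FPKM in Control sample 1, above the other 2 Control samples, and did not pass.

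**Figure D2:**
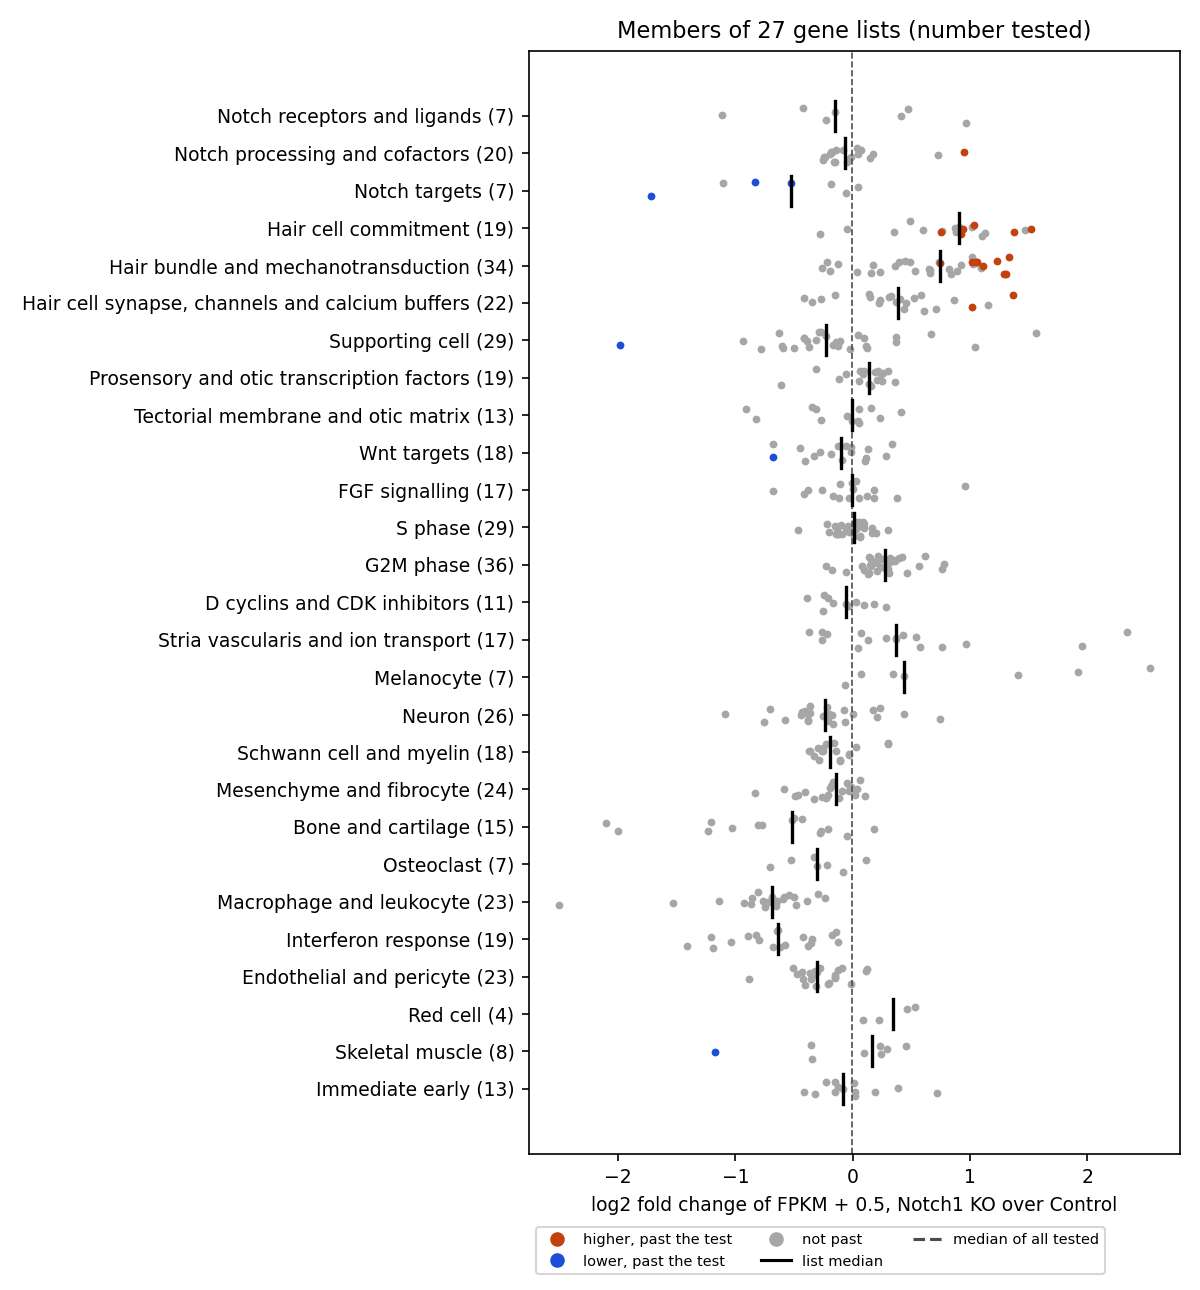
Each point is 1 tested member of a gene list, placed by its log2 fold change (FPKM + 0.5, Notch1 KO over Control; horizontal axis); lists run down the page with the number tested. Orange and blue points passed the test higher and lower, black ticks are list medians. The medians of hair cell commitment (0.91) and hair bundle (0.74) lie to the right of the median of all rows (dashed, -0.01) and that of the Notch targets (-0.53) to its left.

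Supporting cell genes gave 1 call among 29 tested, a lower one, beside 0.322% of all rows lower, and a median of -0.23. Without overlap were 8 members on the lower side and 4 on the higher, beside 8.64% and 7.43% of all rows. Trh, the precursor of thyrotropin-releasing hormone, had 0.0315 and 0.0407 FPKM in Notch1 KO samples 1 and 2 and was listed at 0 in sample 3, against 0.601, 2.29 and 2.38 FPKM in Control (-1.98 ± 0.31, limma, adjusted p = 0.0157). That call was lost without Control sample 2 or 3, or without any single Notch1 KO sample (adjusted p up to 0.0701). In the authors' deposited table the p-value of Trh is 0.247. Prox1, a transcription factor of pillar and Deiters' cells, had 2.18, 1.92 and 2.32 FPKM in Notch1 KO, against 5.0, 4.59 and 4.05 FPKM in Control (-0.93 ± 0.20, limma, adjusted p = 0.0552). Kremen1, a receptor for Dkk inhibitors of Wnt, had 49.6, 41.0 and 41.5 FPKM in Notch1 KO, against 82.0, 58.1 and 61.9 FPKM in Control (-0.60 ± 0.13, limma, adjusted p = 0.0596, and 0.0393 with the block). In Prox1 and Kremen1 every knockout sample was below every Control sample.

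Sox2, Fgfr3, Slc1a3 and Lgr5 overlapped between the groups. Sox2, the prosensory factor that supporting cells keep, had 68.7, 46.5 and 52.4 FPKM in Notch1 KO, against 41.8, 59.1 and 62.1 FPKM in Control. Fgfr3, of pillar and Deiters' cells, had 46.9, 38.2 and 36.9 FPKM in Notch1 KO, against 38.2, 46.0 and 47.5 FPKM in Control. Both were higher in knockout sample 1 than in Control sample 1 and lower in knockout samples 2 and 3 than in Control samples 2 and 3. Slc1a3, of inner border and phalangeal cells, had 39.2, 43.5 and 43.9 FPKM in Notch1 KO, against 35.0, 61.3 and 56.2 FPKM in Control, and Lgr5, a Wnt co-receptor of progenitor-like supporting cells, had 7.91, 6.71 and 6.67 FPKM in Notch1 KO, against 8.07, 7.48 and 7.71 FPKM in Control. On the opposite side, Penk, an opioid peptide precursor, had 16.1, 13.2 and 14 FPKM in Notch1 KO, against 1.56, 7.33 and 7.41 FPKM in Control, without overlap and not past the test (1.56 ± 0.41, limma, adjusted p = 0.136). With the block 2 members rose (Npy and Nkain4) and 3 fell (Trh, Kremen1 and Fabp7), beside 0.988% and 0.638% of all rows higher and lower with the block.

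Other programmes of the epithelium gave almost no call. By limma none of 19 prosensory and otic transcription factors passed (median 0.14), none of 13 tectorial membrane genes (-0.01), none of 17 FGF signalling genes (-0.01), none of 29 S phase genes (0.01), none of 36 genes of G2 and mitosis (0.27) and none of 11 D cyclins and CDK inhibitors (-0.05). At an unadjusted p under 0.05 these 6 lists had 2, 1, 3, 0, 1 and 2 members, beside 1206 of all 14581 rows. In the G2 and mitosis list 33 of 36 fold changes were positive, at low levels. Without overlap were 10 on the higher side and none on the lower, beside 7.43% and 8.64% of all rows. With samples 2 and 3 alone 15 of the 36 were called higher, beside 6.56% of all rows. The list median was 0.07 between the samples numbered 1 and 0.34 between samples 2 and 3. Mki67, the proliferation antigen, had 1.25, 1.65 and 1.59 FPKM in Notch1 KO, against 1.32, 1.16 and 0.946 FPKM in Control, with sample 1 lower in the knockout. Cdkn1b, the inhibitor that holds supporting cells out of the cycle, had 102, 93.5 and 92.4 FPKM in Notch1 KO, against 133, 131 and 115 FPKM in Control, without overlap and not past the test (-0.39 ± 0.12, limma, adjusted p = 0.218). Among 18 Wnt targets 1 passed, beside 0.322% of all rows lower: Notum, a secreted inhibitor of Wnt, had 67.3, 64.8 and 60.7 FPKM in Notch1 KO, against 109, 95.6 and 106 FPKM in Control (-0.68 ± 0.12, limma, adjusted p = 0.0242). Its call was lost without any single Notch1 KO or Control sample (adjusted p 0.0556 to 0.121) and without double sample 2.

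The genes with the largest changes lay mostly outside these lists. Grp, the precursor of gastrin-releasing peptide, had 18.4, 19.0 and 19.4 FPKM in Notch1 KO, against 2.34, 4.71 and 5.27 FPKM in Control (2.14 ± 0.23, limma, adjusted p = 0.0034). Gng8, a G protein γ subunit, had 12, 5.92 and 5.5 FPKM in Notch1 KO, against 0.576, 1.06 and 1.57 FPKM in Control (2.37 ± 0.31, limma, adjusted p = 0.0090). The knockout samples were nearly equal for Grp, while for Gng8 sample 1 was well above samples 2 and 3. Tmem91, Pkhd1l1, Slc16a11, Tmem255b, Ptgir and Tnni3k rose by 1.79, 1.47, 1.44, 1.42, 1.41 and 1.39; Pkhd1l1 codes for a coat protein of stereocilia and Ptgir for the prostacyclin receptor. Of these, Pkhd1l1 had 2.95, 2.77 and 2.60 FPKM in Notch1 KO, against 0.422, 0.950 and 0.741 FPKM in Control.

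The largest fall was that of Agr3, a protein disulfide isomerase of ciliated and secretory epithelia, with 10.8, 11.5 and 12.8 FPKM in Notch1 KO, against 36.7, 105 and 89.1 FPKM in Control (-2.54 ± 0.34, limma, adjusted p = 0.0102). Prdm12, a transcription factor known from sensory neurons, had 0.0728, 0.0108 and 0.0653 FPKM in Notch1 KO, against 1.8, 2.04 and 2.71 FPKM in Control (-2.28 ± 0.21, limma, adjusted p = 0.0016), so it was near 0 in every knockout sample. Crhr1, the receptor of corticotropin-releasing hormone, had 2.51, 1.6 and 1.91 FPKM in Notch1 KO, against 7.06, 11.7 and 13.5 FPKM in Control (-2.13 ± 0.23, limma, adjusted p = 0.0034). Channel genes were among the falls. Hcn4, a hyperpolarization-activated channel, had 0.622, 0.339 and 0.644 FPKM in Notch1 KO, against 3.18, 2.71 and 2.46 FPKM in Control (-1.67 ± 0.19, limma, adjusted p = 0.0034), and Kcnk3, a background potassium channel, had 1.73, 1.5 and 1.57 FPKM in Notch1 KO, against 7.01, 5.19 and 6.17 FPKM in Control (-1.65 ± 0.32, limma, adjusted p = 0.0371). Mansc4 fell by 1.75, Stox1 by 1.30 and Abi3bp by 1.23 on the log2 scale. With any 1 of the 6 Notch1 KO and Control samples left out, 9 of the 40 named genes that were called always passed (Crhr1, Fscn2, Gng8, Grp, Hcn4, Lfng, Pkhd1l1, Prdm12 and Rasd2), and 11 never did (Anxa4, Hey1, Heyl, Kcna10, Kcnk3, Mfng, Myo3b, Notum, Otof, Ptgir and Slc16a11). The other 20 passed in part; Gfi1, Grxcr2 and Agr3 were lost without Notch1 KO sample 3 alone (limma, adjusted p = 0.0549 for each). Lfng and Prdm12 passed in 22 of 23 settings, the most of any named gene, and Anxa4 and Kcna10 in 6, the fewest.

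In the tissue around the organ no list but that of skeletal muscle held a called member in the model without pairing, and there the libraries themselves differed. The summed FPKM of the Schwann cell and myelin list was 685, 1062 and 1053 in Notch1 KO, against 3150, 597 and 610 in Control. Control sample 1 was thus far above every other sample, while knockout samples 2 and 3 were above Control samples 2 and 3. The median over the 18 tested members was -1.64 between the samples numbered 1 and 0.62 between the means of samples 2 and 3. Neuron genes split the same way, with medians of -1.78 and 0.60 over 26 members. By limma none passed in either list without pairing, and 1 of 18 Schwann cell and 5 of 26 neuron genes had an unadjusted p under 0.05. Of all 14581 rows 1206 had one. With the block 1 neuron gene passed, lower, beside 0.638% of all rows lower.

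Immune and bone genes were high in Control sample 1 alone. The summed FPKM of the macrophage and leukocyte list was 120, 153 and 160 in Notch1 KO, against 774, 169 and 165 in Control, and C1qa, a complement gene of macrophages, had 12.2, 19.6 and 21.6 FPKM in Notch1 KO, against 65.7, 19.9 and 24.4 FPKM in Control. Ibsp, the bone sialoprotein, had 47.2, 68.2 and 69.9 FPKM in Notch1 KO, against 461, 82.0 and 78.1 FPKM in Control. In both genes Control samples 2 and 3 lay close to the knockout. None of these lists had a called member by limma. At an unadjusted p under 0.05, 5 of 23 macrophage, 2 of 19 interferon and 2 of 15 bone and cartilage genes were lower. Of all 14581 rows 1206 had such a p in either direction. In samples 2 and 3 the medians of the bone and cartilage, macrophage and interferon lists were 0.12, -0.19 and 0.01.

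The sum of the tested pigment cell genes was high in knockout samples 2 and 3, and so were single genes of the stria vascularis, the tissue that makes the potassium-rich fluid of the cochlea. The summed FPKM of the 7 tested melanocyte genes was 14.7, 69.3 and 72.1 in Notch1 KO, against 15.8, 15.0 and 14.4 in Control. Of the 4 under the filter, Trpm1 had 0.0471, 2.34 and 2.49 FPKM and Slc45a2 0.0825, 1.81 and 1.71 FPKM in Notch1 KO. In Control they reached at most 0.0708 and 0.119 FPKM. Tyrp1 and Gpr143 reached at most 0.167 and 0.186 FPKM in these 2 groups. Tyrp1 overlapped between the groups. Gpr143 had 0.132, 0.164 and 0.186 FPKM in Notch1 KO, against 0.0379, 0.116 and 0 FPKM in Control, all near 0. The summed FPKM of the 17 stria genes was 833, 708 and 698 in Notch1 KO, against 725, 596 and 610 in Control. The median difference of that list was 0.25 between the samples numbered 1 and 0.26 between samples 2 and 3. As a whole that list did not split by sample number. Dct, an enzyme of melanin synthesis, had 0.427, 46.5 and 46.6 FPKM in Notch1 KO, against 0.773, 2.66 and 2.12 FPKM in Control. Kcne1, a channel subunit of strial marginal cells, had 0.610, 8.71 and 8.75 FPKM in Notch1 KO, against 0.362, 0.385 and 0.464 FPKM in Control, and Esrrb, a nuclear receptor of the same cells, had 0.560, 5.05 and 5.6 FPKM in Notch1 KO, against 0.285, 0.418 and 0.351 FPKM in Control. Knockout samples 2 and 3 were high for all 3 genes, and knockout sample 1 was near Control. None passed (limma, adjusted p = 0.671 for Dct, 0.226 for Kcne1 and 0.183 for Esrrb), nor did any other of the 7 melanocyte and 17 stria genes tested. Of these lists 3 and 5 genes had an unadjusted p under 0.05, beside 1206 of all 14581 rows. Slc12a2, the chloride cotransporter of the stria, had 199, 121 and 124 FPKM in Notch1 KO, against 91.1, 68.3 and 64.0 FPKM in Control, higher in every knockout sample and past the test with the block alone (0.96 ± 0.25, limma, adjusted p = 0.136, and 0.0021 with the block). Tnnt1, a slow muscle troponin, was the 1 called member of 8 tested muscle genes, beside 0.322% of all rows lower. It had 4.34, 6.02 and 4.78 FPKM in Notch1 KO, against 8.07, 15.0 and 14 FPKM in Control (-1.18 ± 0.24, limma, adjusted p = 0.0483). With 1 Notch1 KO or Control sample left out it passed in 1 of 6 fits (limma, adjusted p 0.0148 to 0.175). The muscle genes Ckm and Acta1 reached at most 0.101 and 0.132 FPKM in these groups, so the fall cannot be assigned to muscle. The mesenchyme, endothelial, osteoclast, red cell and immediate early lists had medians of -0.15, -0.31, -0.31, 0.34 and -0.08 over 24, 23, 7, 4 and 13 members. None was called by limma without pairing, with 1, 3, 2, 1 and 0 members at an unadjusted p under 0.05. With the block 1 mesenchyme and 1 endothelial gene passed lower and 1 red cell gene higher, beside 0.638% and 0.988% of all rows lower and higher.

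**Figure D3:**
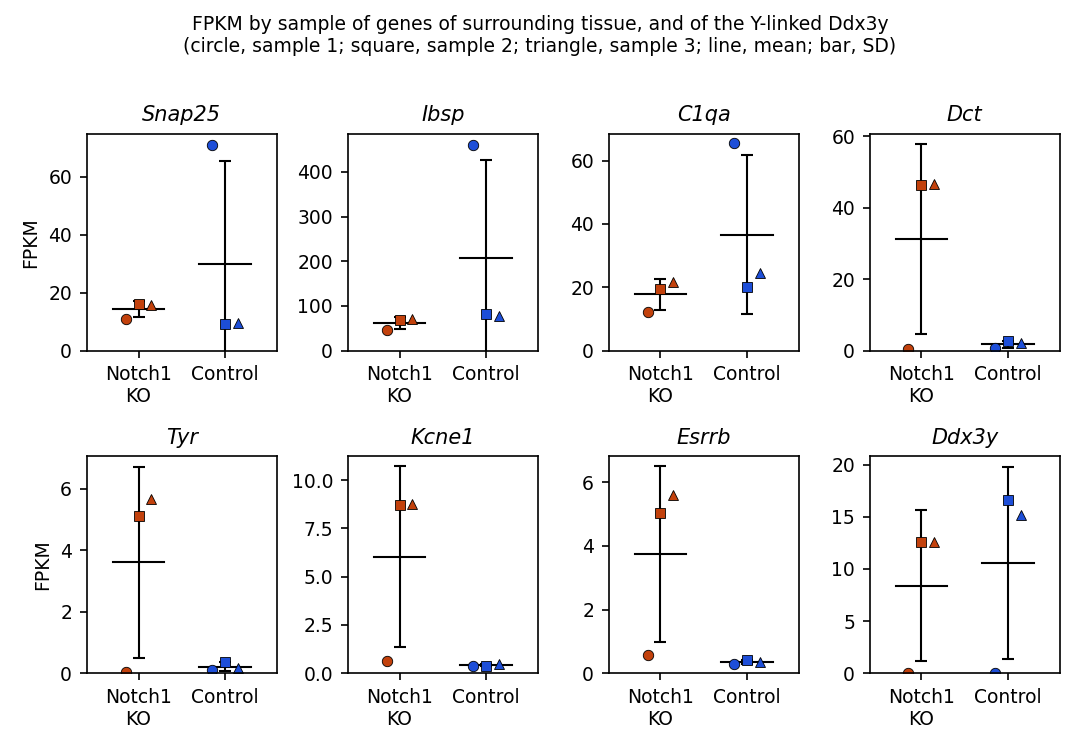
FPKM (linear axis, from 0) of 7 genes of surrounding tissue and of Y-linked Ddx3y in Notch1 KO (left, orange) and Control (right, blue); circles, squares and triangles are samples 1, 2 and 3, with the mean and SD. Control sample 1 is far above the rest for Snap25, Ibsp and C1qa, and Notch1 KO samples 2 and 3 for Dct, Tyr, Kcne1 and Esrrb; Ddx3y is at or near 0 in sample 1 of both groups.

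The hair cell and Notch results can be set beside these differences between libraries. The summed FPKM of the hair cell commitment list was 1096, 1141 and 1178 in Notch1 KO, against 548, 790 and 758 in Control, and that of the hair bundle list 733, 693 and 680 in Notch1 KO, against 432, 495 and 506 in Control. Control sample 1 was the lowest of the Control samples in both. The median difference of the commitment list was 1.30 between the samples numbered 1 and 0.69 between samples 2 and 3, and that of the bundle list 0.95 and 0.65, positive in both. With samples 2 and 3 alone, 15 of 19 commitment genes and 21 of 34 bundle genes were called higher, beside 6.56% of all rows, and Lfng stayed called lower, beside 5.34%. Such counts were not confined to hair cell lists. In that setting 16 of 18 Schwann cell, 16 of 26 neuron and 15 of 36 G2 and mitosis genes were called higher. Of 29 supporting cell genes 16 were called lower and 7 higher, and 3 neuron genes were called lower. The part of the makeup of Control sample 1 in the size of the changes over all 3 samples was not tested. Across all 14581 rows, the log2 differences of sample 1 and of samples 2 and 3 correlated at 0.201, as a description across genes.

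**Figure D4:**
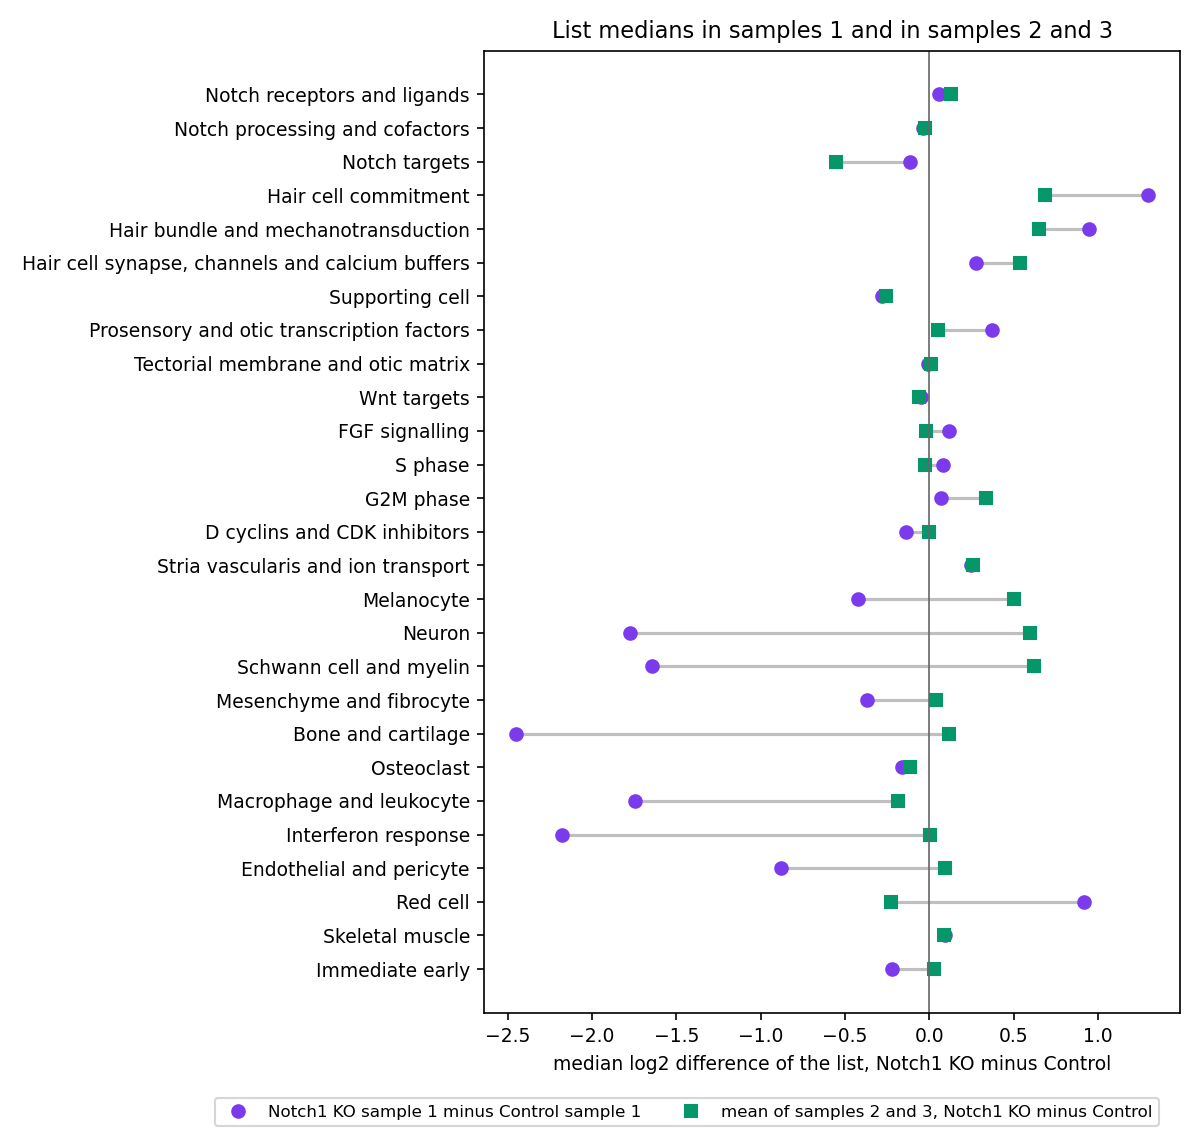
Median log2 difference of each gene list, Notch1 KO minus Control (horizontal axis), between the samples numbered 1 (purple circles) and between the means of samples 2 and 3 (green squares). The hair cell lists lie right of 0 in both and the Notch targets left of 0 (-0.11 and -0.56), while the neuron, Schwann cell and bone lists change side.

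The loss of Notch1 was also measured on top of β-catenin overexpression, as the double group over the b-catenin-OE group, which shares no sample with the comparison above. Both comparisons use the same estimate of each gene's spread, from all 12 samples, so their calls are not independent. There 396 rows passed (limma, 2.72%). Of the 78 genes higher in Notch1 KO, 70 had the same sign in that setting and 19 were called higher, beside 1.22% of all rows. Of the 47 lower ones, 40 had the same sign and 18 were called lower, beside 1.5% of all rows. The share of all rows with the same sign in both settings was not computed, so the sign counts have no background. The median fold change was 1.08 for the 78 in Notch1 KO over Control and 0.52 in double over b-catenin-OE, and -1.05 and -0.56 for the 47. The genes were chosen by the first value of each pair, so that value is the larger in part by choice. In double over b-catenin-OE the median was 0.46 for hair cell commitment, 0.44 for bundle and 0.015 for synapse genes. It was -0.48 for Notch targets, -0.34 for supporting cell and -0.35 for stria genes, beside 0.003 for all rows.

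Lfng fell by 1.72 in Notch1 KO and by 1.29 in double over b-catenin-OE (limma, adjusted p = 0.0024), Hcn4 by 1.67 and 1.54, and Gng8 and Rasd2 rose by 2.37 and 1.38 in Notch1 KO and by 2.46 and 1.39 with β-catenin overexpressed. Agr3, Prdm12, Crhr1 and Trh, the 4 largest named falls, each had lower values in every b-catenin-OE sample than in any Control sample. Agr3 had 7.14, 11.7 and 12.2 FPKM in double, against 9.74, 15.3 and 15.0 FPKM in b-catenin-OE, and Crhr1 had 2.38, 3.06 and 2.31 FPKM in double, against 4.69, 3.26 and 3.64 FPKM in b-catenin-OE. Prdm12 averaged 0.0137 FPKM in double and 0.319 FPKM in b-catenin-OE, and Trh 0.0151 and 0.0530 FPKM, so with 0.5 FPKM added a fall as large as that in Notch1 KO could not be measured there for either. None of the 4 passed in double over b-catenin-OE. Notum had -0.68 in Notch1 KO and 0.41 in double over b-catenin-OE (difference, limma, adjusted p = 0.0572), and Heyl -0.53 and -1.36 (adjusted p = 0.0654). The difference passed for 3 of 14581 rows (0.0206%), one of which, Ism1, was among the genes lower in Notch1 KO.

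**Figure D5:**
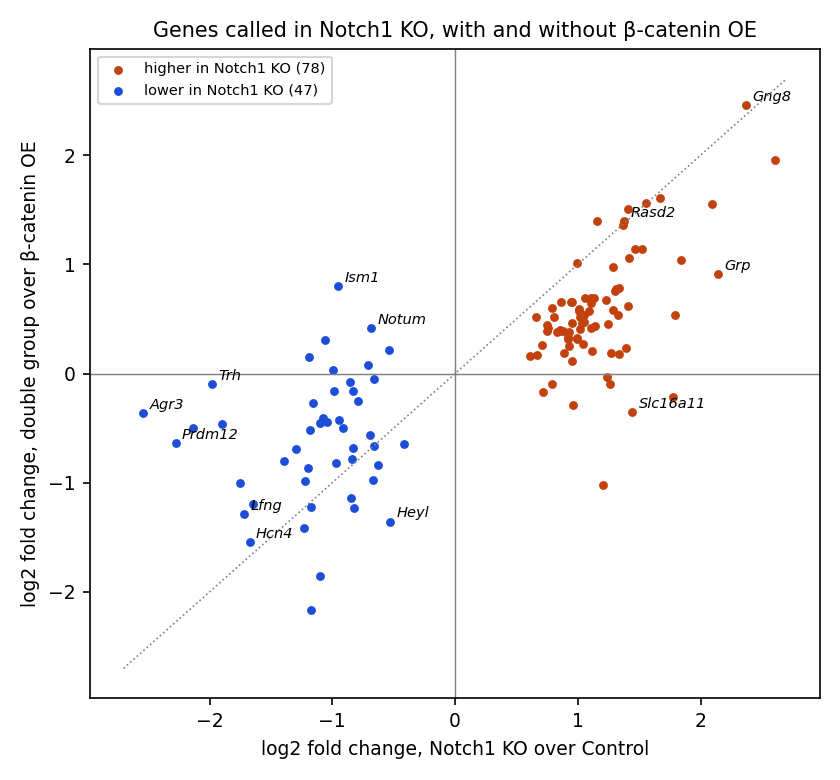
Log2 fold change of the 125 called genes in Notch1 KO over Control (horizontal axis) against that in double over b-catenin-OE (vertical axis); orange points are the 78 higher genes and blue the 47 lower ones, and the dotted line marks equal values. Most points (70 and 40) lie on the same side of 0 on both axes, nearer 0 on the vertical one; Ism1, Notum and Slc16a11 are among those on opposite sides.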

How the data were processed

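RNA of 12 pooled cochlear samples (postnatal day 7) was sequenced. The deposited table holds 1 FPKM value per row and sample, made by the authors; the submitters' processing notes list Cuffdiff, Cufflinks 2.2.1, Bowtie2 2.2.1, TopHat2 2.0.10, Trimmomatic 0.23, CASAVA 1.8 and the build mm10, with neither role nor order. Which annotation, filters or further library scaling were used is not given in the sources used here. In addition, the authors deposited p-values, of which the lowest is 5e-05. Of 23598 rows, 647 merge several genes and were not assigned to 1 gene; 514 symbols stood in several rows, and the symbol went to the row of highest mean. Loci were given a start 1 base higher, as a browser shows them.

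Rows with at least 0.5 FPKM in at least 3 of 12 samples were tested on log2(FPKM + 0.5) with limma 3.58.1 (R 4.3.3), in 1 model of 4 group means whose spread was moderated by trended empirical Bayes, two-sided, with Benjamini-Hochberg adjustment and a threshold of 0.05. All groups share 1 estimate of the spread because 3 samples a group estimate it poorly. FPKM allows no count test. The fit was tested on simulated data. Members and gene lists were chosen with earlier results of these data known, so lists get counts and medians beside all rows tested, and no test. Some lists share a gene.

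The named genes are Notch1, Lfng, Gfi1 and Grxcr2, the 10 largest rises and 10 largest falls among called genes whose mean reached 1 FPKM in either group and whose samples did not overlap, without predicted models, merged rows, ribosomal or small RNA, then every called member of a list, and up to 6 best-known members of a list that did not pass. Other genes named were chosen after their values were seen. A few genes are not reported here.

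The sample numbers come from the titles, which do not say that a number marks a batch. Deviations of same-numbered Notch1 KO and Control samples from their group means correlated at 0.364, 0.344 and 0.142 over 5889 genes, each over 0.1. By the rule in use the number could thus stand for a pairing. The calls nevertheless come from the model without pairing, because the titles do not call the number a batch. A fit with the number as a block is an alternative, given for the list counts that it changes and for some of the genes. Across numbers, Notch1 KO sample 3 correlated with Control sample 2 at 0.465 and Notch1 KO sample 2 with Control sample 3 at 0.172, while sample 1 with 2 or 3 gave -0.459 to -0.177. The values thus set sample 1 apart and do not tell number 2 from number 3. Between samples 2 and 3 the squared difference exceeded counting noise, by 2.27 to 2.96 times in Notch1 KO and 2.4 to 8.74 times in Control, so neither is a copy of the other. This does not tell separate pools from libraries of 1 pool; they are counted as separate because the labels list them so. Depth was read from whole-fragment steps in 7631 genes with 1 transcript (GENCODE M21): 77.4% to 78.5% of low values lay within 0.1 of a whole number in samples 2 and 3, and 35.0% and 36.2% in the samples numbered 1. Promoters are from RefSeq. Other settings changed scaling, pseudocount, filter, samples in the fit and spread, and left out each sample.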

Additional observations from a re-analysis of the deposited data

Results flagged for a closer look

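For 3 genes the effect of losing Notch1 differed with the β-catenin setting by the test of the difference itself (double over b-catenin-OE, minus Notch1 KO over Control). Ism1, a secreted protein, had 5.40, 6.09 and 5.90 FPKM in Notch1 KO, against 11, 12.2 and 11.9 FPKM in Control, and 39.7, 44.5 and 48.1 FPKM in double, against 19.9, 28.2 and 27.8 FPKM in b-catenin-OE. The knockout thus had opposite signs in the 2 settings, with a difference of 1.75 (limma, adjusted p = 0.0166). Aldh1a2, an enzyme of retinoic acid synthesis, had 39.2, 42.0 and 41.2 FPKM in Notch1 KO, against 21.7, 35.5 and 35.6 FPKM in Control, and 10.8, 8.99 and 8.70 FPKM in double, against 23.8, 26.0 and 25.4 FPKM in b-catenin-OE, a difference of -1.79 (limma, adjusted p = 0.0490). Ivl, a protein of the cornified envelope of skin, was at 0.0178 to 0.0969 FPKM in every Notch1 KO and Control sample and at 5.90, 8.25 and 8.79 FPKM in double, against 1.32, 1.61 and 1.47 FPKM in b-catenin-OE, a difference of 2.08 (limma, adjusted p = 0.0166).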

How the results depend on the processing

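Of 14581 rows 125 were called. The count was 7 with Notch1 KO and Control samples alone, 237 with the replicate block, 0 with samples 2 and 3 averaged (limma; 602 at an unadjusted p under 0.05), 1735 with samples 2 and 3 alone and 14 to 213 with 1 sample left out. For the difference between β-catenin settings the count of 3 was 6 with quantile normalization, 1 with a pseudocount of 0.1, 7 with no filter, 53 with the replicate block, 0 with samples averaged, 2810 with samples 2 and 3 alone and 0 to 67 with 1 sample left out. For Notch targets lower, hair cell commitment higher, hair bundle higher, synapse higher and supporting cell lower (3, 6, 9, 2 and 1), the counts were 1, 0, 0, 0 and 0 with these groups alone, 0 in each with samples averaged, and 5, 15, 21, 15 and 16 with samples 2 and 3 alone. With the replicate block they were 11 for commitment, 15 for bundle, 3 for synapse and 3 for supporting cell genes. With 1 sample left out they ranged from 1 to 3, 2 to 10, 1 to 11, 0 to 5 and 0 to 2. The synapse count was 1 with a pseudocount of 0.1, with no filter or with no trend; the supporting cell count was 2 with median scaling or no trend and 0 with the filter at 1 FPKM. Notch1 passed with the replicate block (-1.11, adjusted p = 0.0156), with samples 2 and 3 alone (-0.99, adjusted p = 9.0e-05) and without b-catenin-OE sample 1 (adjusted p = 0.0247), and lay between -1.26 and -0.91 with 1 sample left out. Among the 40 named genes called, none changed direction; the block ended the call of Kcna10 and changed no other, these groups alone kept 3 (Lfng, Prdm12 and Kcnk3), and averaging kept 0. Smaller sample numbers are part of the construction of these settings; beyond that the cause was not tested. If samples 2 and 3 of a group are not separate pools, the p-values here are too small, and depth is unknown for the samples numbered 1.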

Other observations

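Further called genes outside the lists are given here, chosen after their values were seen. Bdnf, the neurotrophin that hair cells supply to their neurons, had 5.59, 5.25 and 4.36 FPKM in Notch1 KO, against 1.85, 2.68 and 2.39 FPKM in Control (0.99 ± 0.18, limma, adjusted p = 0.0279), and 1.01 ± 0.18 in the double group over b-catenin-OE. Kcnmb2, a subunit of calcium-activated potassium channels, rose by 1.09 and Sema5b, a guidance cue, by 1.28. Igfbp3, a binder of insulin-like growth factors, had 105, 71.5 and 72.0 FPKM in Notch1 KO, against 172, 162 and 152 FPKM in Control (-0.98 ± 0.15, limma, adjusted p = 0.0141).

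Genes of motile cilia were looked at after such names appeared among the called rows, with a list of 45 axoneme genes written then. Of 24 tested, Spag6, Dnaic2 and Drc1 rose (1.25, 1.13 and 0.92) and none fell, beside 0.535% of all rows higher. In the authors' deposited table the p-values of Spag6, Dnaic2 and Drc1 are 0.0007, 0.134 and 0.0008. The list median was 0.22 beside -0.01 for all rows. It was 0.44 between the samples numbered 1 and 0.07 between samples 2 and 3. Without overlap were 9 on the higher side and 1 on the lower, beside 7.43% and 8.64% of all rows. The 1 on the lower side was Dnaic1, with 2.74, 2.93 and 2.08 FPKM in Notch1 KO, against 3.83, 3.11 and 3.80 FPKM in Control. Spag6 had 4.70, 4.48 and 4.01 FPKM in Notch1 KO, against 0.971, 1.89 and 1.99 FPKM in Control. The choice of the list after seeing called members means its count supports nothing.

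A gene of antigen presentation stood out in single samples: H2-Aa had 0.187, 0.396 and 0.129 FPKM in Notch1 KO, against 51.7, 0.132 and 0.316 FPKM in Control, and 12.1, 0.346 and 0.126 FPKM in double. It was under the filter and was not tested.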
